A study of Mus musculus with 24 samples.

Results

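The voltage-gated sodium channel genes, the calcium channel genes of the Cacna, Cacnb and Cacng families and the 4 HCN channel genes were examined in RNA from the mouse brain. Members were taken by symbol: Scn with a number and the letter a or b, Cacna (pores and alpha2delta subunits), Cacnb and Cacng with any suffix, and the HCN genes. The rule found 43 genes of the 24062 in the count tables. They comprised 9 sodium channel pore subunits, 4 sodium channel beta subunits, 7 high-voltage-activated and 3 T-type calcium channel pore subunits, 4 alpha2delta subunits, 4 calcium channel beta subunits, 8 gamma subunits and 4 HCN channels. The tables list the sodium channel Scn2a under the older symbol Scn2a1, which the rule leaves out.

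Voltage-gated sodium channels open on depolarisation and carry the upstroke of the action potential, while their beta subunits change gating and place the channel in the membrane. Calcium channels couple depolarisation to transmitter release, to gene regulation and, in the T-type, to low-threshold firing; their alpha2delta and beta subunits bring the pore to the surface. HCN channels open on hyperpolarisation and serve pacemaking. Serotonin neurons of the raphe are known for slow, regular firing that depends on such currents.

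The samples came from mice at post-natal day 9, either carrying a knockout of Celf6, an RNA-binding protein (KO), or wild type (WT). Tissue was the region behind the thalamus, with the cortices removed. TRAP libraries hold RNA bound to tagged ribosomes, purified with an allele that directs the tag to serotonin cells, and input libraries hold the total RNA. The strain, and whether libraries of 1 group came from separate litters, are not given in the labels, so p-values measure the spread between these samples. There were 5 KO TRAP, 5 WT TRAP, 5 KO input and 3 WT input libraries after WT input 2 and WT input 3 were summed. Those 2 libraries differed by a chi-square of 1.37 per gene, against 26.2 to 95.4 for other pairs within a group and 1.39 to 2.67 for repeat runs of 1 library, and were counted as 1 sample, named WT input 2/3.

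Library totals ran from 3390423 to 6861963 counts, over 13788 to 15892 genes with a count. Levels are given in CPM, counts scaled to a common library size adjusted by the trimmed mean of M values. All 9 serotonin neuron markers tested (Tph2 and Slc6a4 among them) were higher in TRAP, and their summed level was 4074 to 10334 CPM in TRAP libraries, against 170.4 to 302 CPM in input libraries. The knocked-out gene did not separate the genotypes fully. Celf6 stood at 115, 21.4, 56.5, 26.95 and 36.3 CPM in the libraries labelled KO TRAP 1 to 5, against 150, 188, 171, 116 and 85.3 CPM in WT TRAP 1 to 5. In input it stood at 14.8, 22.02, 16.9, 4.79 and 17.3 CPM in KO input 1 to 5, against 33.2, 15.4 and 105 CPM in WT input 1, 2/3 and 5. Thus the library labelled KO TRAP 1 lay within the WT range and the library labelled WT input 2/3 within the KO range, and libraries are named by their labels throughout. The library labelled KO TRAP 1 also held 381 counts of Xist with 154 of Y-linked genes, and the library labelled WT input 5 held 123 with 33.

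Of the 43 genes, 34 passed the low-count filter for the comparison of TRAP with input RNA, which asks how the channel genes of serotonin-cell ribosomes stand against the surrounding tissue. The sodium channel beta subunit Scn3b was higher in TRAP, and 5 genes were lower: the calcium channel accessory gene Cacng2, the T-type pores Cacna1i and Cacna1g, the sodium channel pore Scn8a and the alpha2delta subunit Cacna2d2. Across all 14261 genes tested, 4.72% differed at an adjusted p below 0.05 (edgeR quasi-likelihood test, Benjamini-Hochberg), 2.41% higher and 2.31% lower. Among the channel genes the count was 1 higher and 5 lower of 34. At an unadjusted p below 0.05 the count was 10 of 34, against 19% of all genes. The median log2 fold change of TRAP over input was -0.03 for the 34 genes and 0.02 for all genes tested, and 16 of the 34 values were positive and 18 negative. Summed over all members, the level was 2010 to 3182 CPM in TRAP libraries, against 1936 to 2913 CPM in input libraries.

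**Figure D1:**
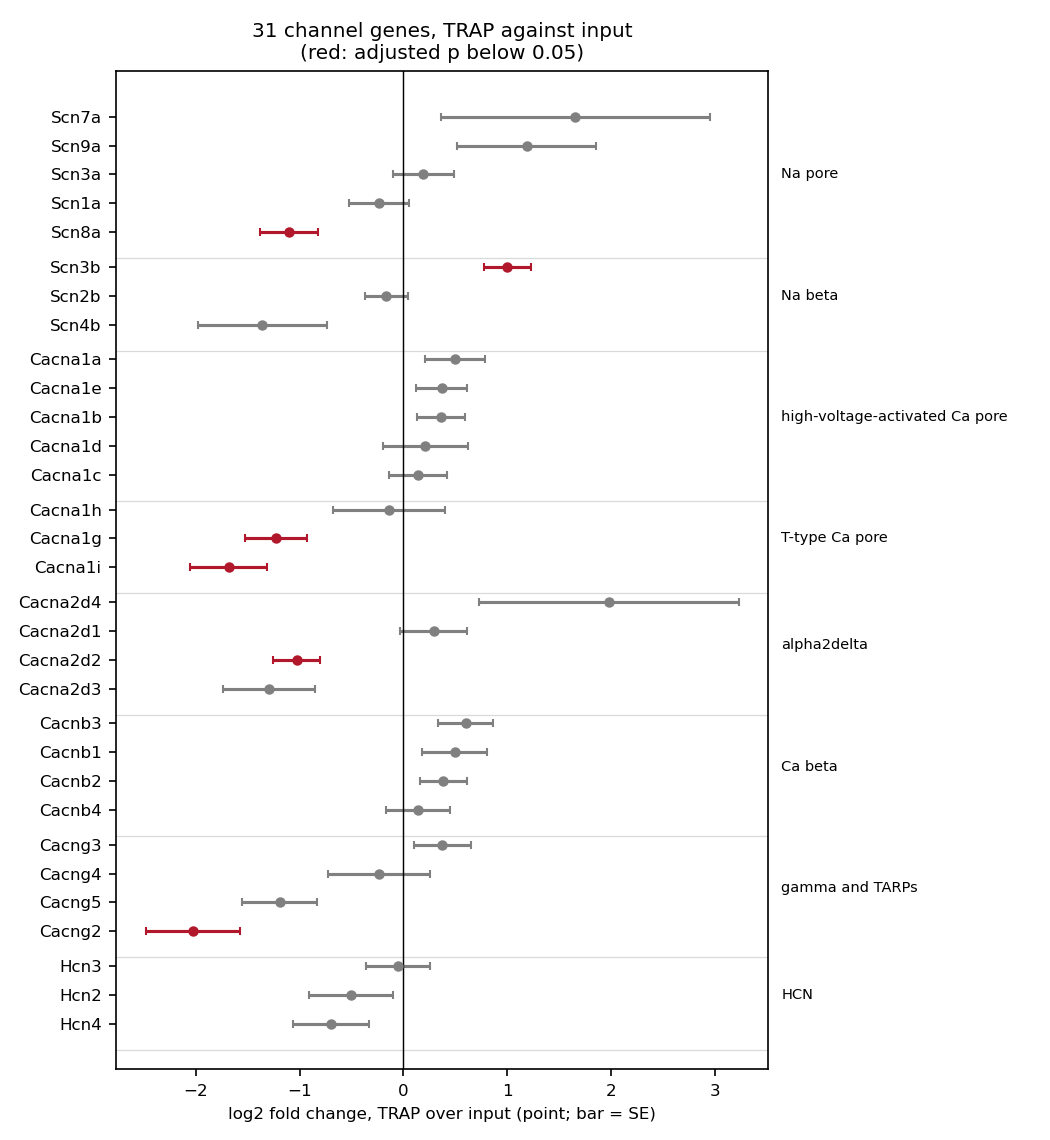
Log2 fold change of TRAP over input (horizontal axis, points, with SE bars) for 31 of the 34 channel genes tested, grouped by role. Red points have an adjusted p below 0.05: Scn3b lies at 1.00, and the other 5 lie between -2.02 and -1.03.

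In bulk samples, fewer cells of a type and less RNA per cell cannot be told apart. Markers of several other cell types moved with the same contrast. The summed level of 10 oligodendrocyte lineage markers was 1101 to 5562 CPM in TRAP libraries, against 5013 to 13191 CPM in input libraries, and 6 of the 10 were lower in TRAP. For 8 astrocyte markers it was 201 to 986 CPM in TRAP libraries, against 793 to 1490 CPM in input libraries, with 3 lower. For 5 glutamate neuron markers it was 210.4 to 402 CPM in TRAP libraries, against 429.8 to 768 CPM in input libraries, with 3 lower. For 5 GABA and glycine neuron markers it was 236 to 668 CPM in TRAP libraries, against 514 to 1325 CPM in input libraries, with 2 lower. For 7 microglia markers it was 6.78 to 82.7 CPM in TRAP libraries, against 23.1 to 139 CPM in input libraries, with none lower at the threshold, and for 4 dopamine and noradrenaline neuron markers it was 4.90 to 40.9 CPM in TRAP libraries, against 38.9 to 98.8 CPM in input libraries, with 1 lower. The 7 endothelial and mural markers summed to 16.6 to 78.8 CPM in TRAP libraries, against 42.4 to 74.1 CPM in input libraries. The 4 Purkinje cell and cerebellum markers summed to 57.4 to 168 CPM in TRAP libraries, against 56.4 to 108 CPM in input libraries. The values of these 4 were split, with 3 positive log2 fold changes of at most 0.50 and 1 of -3.92. In edgeR 0 of either list passed, with 0 and 1 at an unadjusted p below 0.05. None of these markers was at 0 in all TRAP or all input libraries, and their part in the channel gene differences was not tested.

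Among the sodium channel pores, Scn8a was the member that fell in TRAP. Scn8a, on chromosome 15 (mm10, 100870645 to 101045938, plus strand), encodes a pore concentrated at the axon initial segment and nodes of mature neurons. Its level was lowest at 19.5, median 79.9 and highest at 183 CPM in the 10 TRAP libraries, against 111, 161 and 226 CPM in the 8 input libraries. In 7 of the 10 TRAP libraries it was below every input library. The log2 fold change was -1.10 ± 0.28 (SE), with an adjusted p of 0.0200 in edgeR. TRAP libraries of the first sequencing run had 19.5 to 105 CPM and those of the second had 84.99 to 183 CPM; within the second run alone the log2 fold change was -0.48 (adjusted p 0.399). Without the libraries labelled KO TRAP 1 and WT input 5 it was -1.004 (adjusted p 0.0674), and without the run as a covariate -0.93 (adjusted p 0.0871), all by edgeR.

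Per kilobase of exon, Scn8a, Scn1a and Scn3a had the highest mean levels in TRAP of the 9 pore genes taken by the rule, which leaves out Scn2a. Scn8a had 7.72 ± 4.59 CPM per kb in TRAP libraries (SD, n = 10), against 14.5 ± 3.04 in input libraries (SD, n = 8). Scn1a, the pore known from fast-spiking interneurons and, in humans, from epilepsy, had 6.69 ± 2.21 CPM per kb in TRAP libraries, against 8.03 ± 3.09 in input libraries. Scn3a, a pore abundant in the immature brain, had 6.51 ± 1.88 CPM per kb in TRAP libraries, against 5.61 ± 2.22 in input libraries. In TRAP the 3 levels lay within their spread of each other, whereas in input Scn8a exceeded the other two by more than the SDs. Scn8a made up 29.96% ± 8.99 of the summed per-length level of the 9 pore genes in TRAP libraries, against 49.8% ± 6.6 in input libraries. These shares are descriptions, without a test.

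Scn9a, the pore known for pain-sensing neurons, gave a value that the spread did not resolve. Its lowest, median and highest levels were 3.16, 15.6 and 70.0 CPM in TRAP libraries, against 0.524, 4.78 and 23.3 CPM in input libraries. The log2 fold change was 1.19 ± 0.67 with an adjusted p of 0.346 (edgeR), and in the second run alone 2.67 with an adjusted p of 0.0356, against 0.29 with an adjusted p of 0.915 in the first. Without WT input 2/3 it was 2.01. Scn9a shares 319 exon bases with Gm13629 on the opposite strand, and the counting used no strand. Scn7a, a sodium-sensing channel of glia and sensory cells, reached at most 13.3 CPM in TRAP libraries, against 6.62 CPM in input libraries. It did not differ at the threshold (adjusted p 0.533, edgeR).

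The 300-base promoter windows of RefSeq (GRCm38.p6, 250 bases before to 50 after a start site) held 41 promoters of 31 members, among them 5 promoters of 4 of the 6 genes that differed. Both strands were searched for GGGCGG (the GC box), CGGAAGT (an ETS core), TATAAA and CCAAT. The GC box was found in 43.9% of the member promoters and in 35.7% of all 32851 promoters, the ETS core in 2.44% and 6.42%, TATAAA in 2.44% and 13.6%, and CCAAT in 24.4% and 37.4%. Of the 5 promoters, 2 held a match, and both are shown with the motif in capitals to let the 2 genes be compared at their starts.
Scn8a, ETS core, chr15:100936142-100936171, plus strand, 118 bases before an alternative start: gatgaagcgtgCGGAAGTggaagccgtgtg
Cacna2d2, GC box, chr9:107399794-107399823, plus strand, 74 bases before the start: agcgacaggggaGGGCGGcgccggcaggtt
A match is only a description of these letters, and neither binding nor start site use was measured.

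Of the sodium channel beta subunits, Scn3b rose in TRAP, and none of the others differed at the threshold. Scn3b lies on chromosome 9 (mm10, 40269216 to 40291618, plus strand) and encodes a beta subunit abundant in the young brain. It had 243, 258, 275, 334 and 385 CPM in KO TRAP 1 to 5 and 178, 340.5, 448, 315 and 144 CPM in WT TRAP 1 to 5, against 178, 110.1, 182, 112 and 213 CPM in KO input 1 to 5 and 128, 145 and 127 CPM in WT input 1, 2/3 and 5. In 8 of 10 TRAP libraries it was above every input library, and WT TRAP 1 and WT TRAP 5 were the exceptions. This gave a log2 fold change of 1.00 ± 0.23, with an adjusted p of 0.00889 (edgeR). With the replicate number, which may mark the brain, as a block in place of the run, it was 0.81 with an adjusted p of 0.0536. Within the first run alone it was 0.97 (adjusted p 0.0768) and within the second 1.00 (adjusted p 0.0707).

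Scn3b also led the beta subunits per length, at 68.9 ± 21.7 CPM per kb in TRAP libraries, against 35.2 ± 8.81 in input libraries. It formed 49.0% ± 11.9 of the summed per-length level of the 4 beta subunits in TRAP libraries, against 29.3% ± 6.2 in input libraries. Scn2b, which is disulfide-linked to the pore, had 32.2 ± 8.70 CPM per kb in TRAP libraries, against 37.6 ± 11.9 in input libraries. Its log2 fold change of -0.16 ± 0.21 was within about 1 SE of 0. Scn4b, linked to resurgent sodium current, ranged from 0 to 24.3 CPM in TRAP libraries, against 3.83 to 75.7 CPM in input libraries, and its log2 fold change of -1.36 ± 0.62 did not pass (adjusted p 0.229, edgeR).

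**Figure D2:**
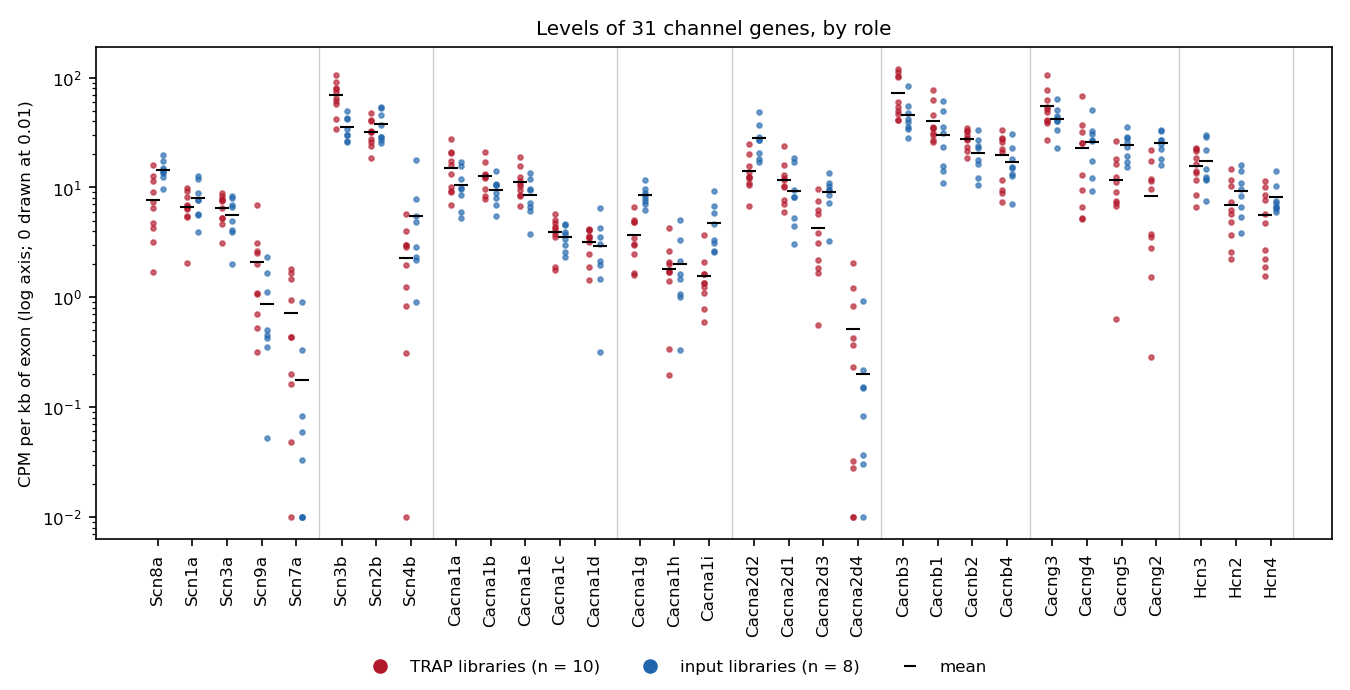
Level of 31 of the 34 tested channel genes in CPM per kilobase of exon (vertical log axis) in every library, by role, with TRAP libraries in red left of input libraries in blue and black dashes for means. Cacnb3, Scn3b and Cacng3 had the highest mean levels of the genes shown in TRAP, at 72.8, 68.9 and 54.7 CPM per kb.

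None of the high-voltage-activated calcium channel pores differed at the threshold, and all 5 tested had positive log2 fold changes between 0.14 and 0.50. Cacna1a, the P/Q-type pore of fast transmitter release, had 54.9, 116 and 218 CPM (lowest, median and highest) in TRAP libraries, against 41.8, 77.3 and 134 CPM in input libraries. Its log2 fold change of 0.50 ± 0.29 had the smallest p of the 5 (adjusted p 0.357, edgeR). Cacna1b, the N-type pore, gave 0.36 ± 0.23, and Cacna1e, the R-type pore, gave 0.37 ± 0.24. The L-type pores Cacna1c and Cacna1d gave 0.14 ± 0.28 and 0.21 ± 0.41. Cacna1d was -0.39 within the first run, 1.34 within the second and -0.27 in WT libraries alone; it shares 528 exon bases with Chdh on the opposite strand.

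Per length, the order in TRAP libraries was Cacna1a at 15.2 ± 6.60, Cacna1b at 12.8 ± 3.94, Cacna1e at 11.3 ± 3.67, Cacna1c at 3.91 ± 1.26 and Cacna1d at 3.19 ± 0.965 CPM per kb. Input libraries had the same order, at 10.5 ± 4.18, 9.42 ± 2.71, 8.55 ± 3.23, 3.53 ± 0.864 and 2.91 ± 1.91 CPM per kb. The first 3 lay within their spread of each other in both kinds of RNA, and so did the 2 L-type pores. Thus the presynaptic pores stood above the L-type pores in TRAP and in input. The retinal pore Cacna1f and the skeletal muscle pore Cacna1s did not pass the filter, with 13 counts each over the 10 TRAP libraries, against 34 and 2 counts over the 8 input libraries.

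Of the 3 T-type pores, 2 fell in TRAP. Cacna1i, on chromosome 15 (mm10, 80287238 to 80398292, plus strand), encodes a slowly inactivating T-type pore known from the thalamic reticular nucleus. It had 20.4, 5.89, 12.2, 15.8 and 10.7 CPM in KO TRAP 1 to 5 and 13.3, 15.9, 7.62, 36.4 and 13.3 CPM in WT TRAP 1 to 5, against 25.5, 30.3, 90.3, 32.6 and 45.3 CPM in KO input 1 to 5 and 57.1, 25.9 and 66.3 CPM in WT input 1, 2/3 and 5. In 9 of 10 TRAP libraries it was below every input library, and WT TRAP 4 was the exception. TRAP over input gave a log2 fold change of -1.68 ± 0.37, with an adjusted p of 0.00761 (edgeR). It was -1.85 within the first run and -1.48 within the second, with adjusted p of 0.0711 and 0.115.

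Cacna1g, on chromosome 11 (mm10, 94408391 to 94474198, minus strand), encodes the T-type pore of thalamic burst firing. Its lowest, median and highest levels were 13.2, 26.7 and 54.2 CPM in TRAP libraries, against 51.6, 68.2 and 95.9 CPM in input libraries. The 2 kinds of RNA overlapped only through the library labelled KO TRAP 1 and KO input 1, at 54.2 and 51.6 CPM. The log2 fold change was -1.23 ± 0.30, with an adjusted p of 0.0153 (edgeR), and -1.12 with an adjusted p of 0.0576 without WT input 2/3. Within the first run alone it was -1.06 (adjusted p 0.185) and within the second -1.49 (adjusted p 0.0716).

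Cacna1h, the third T-type pore, had 1.60, 14.4 and 34.95 CPM (lowest, median and highest) in TRAP libraries, against 2.71, 12.7 and 41.6 CPM in input libraries. Its log2 fold change of -0.14 ± 0.54 gave an adjusted p of 0.931 (edgeR), and it shares 156 exon bases with Tpsg1 on the opposite strand. The summed level of the 3 T-type genes was 37.0 to 91.7 CPM in TRAP libraries, against 85.3 to 165 CPM in input libraries. Per length, Cacna1g had 3.67 ± 1.64, Cacna1h 1.82 ± 1.14 and Cacna1i 1.55 ± 0.873 CPM per kb in TRAP libraries, against 8.46 ± 1.67, 2.00 ± 1.52 and 4.76 ± 2.36 in input libraries.

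**Figure D3:**
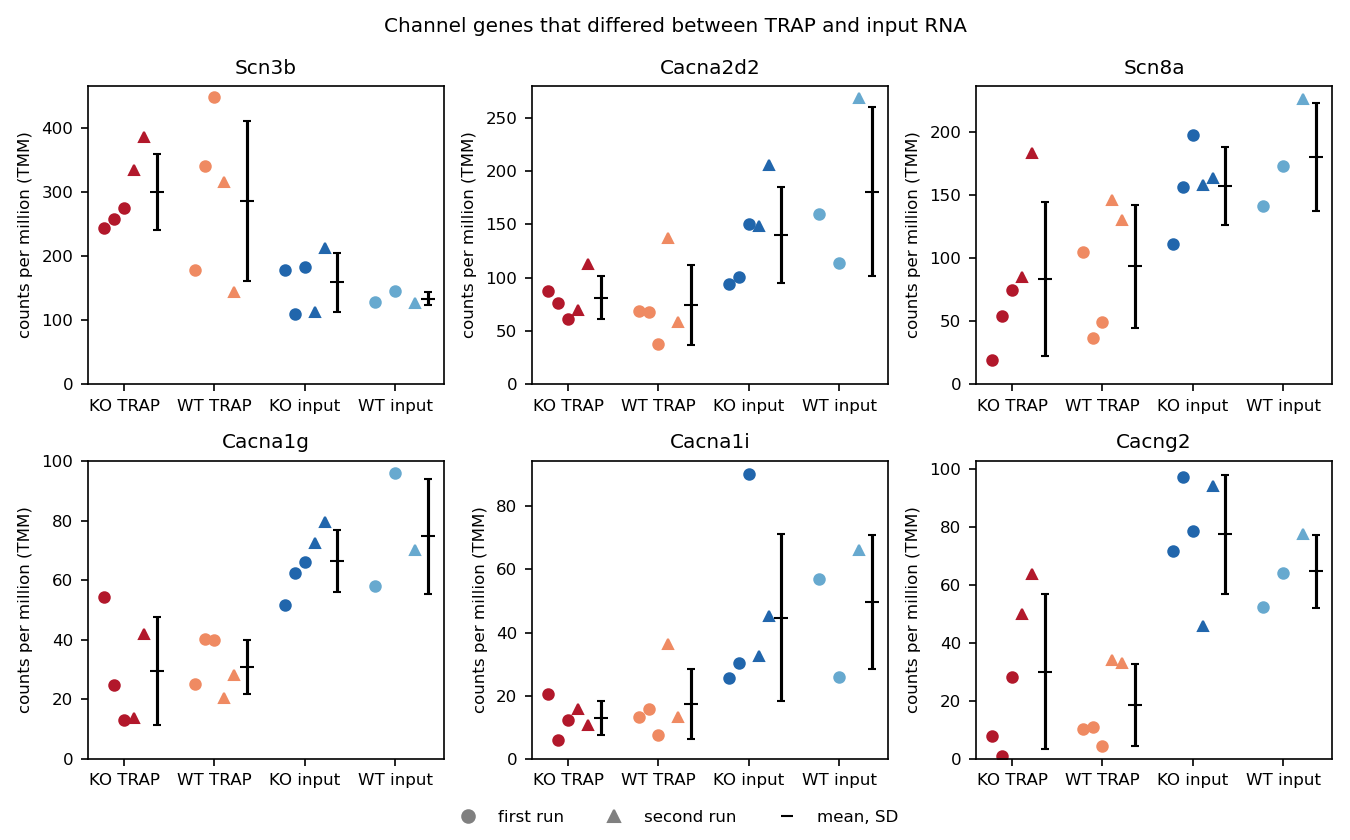
CPM of the 6 channel genes that differed between TRAP and input RNA, 1 panel per gene, with a point per library in KO TRAP, WT TRAP, KO input and WT input and the mean and SD beside each group; circles mark the first sequencing run and triangles the second. For Cacng2 the 4 second-run TRAP libraries, at 33.3 to 63.8 CPM, all lie above the 6 first-run TRAP libraries, at 0.817 to 28.2 CPM.

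Of the alpha2delta subunits, which are the binding site of gabapentin in the case of Cacna2d1 and Cacna2d2, Cacna2d2 fell in TRAP. It lies on chromosome 9 (mm10, 107399880 to 107529343, plus strand), just downstream of the GC box shown above. It had 87.5, 75.9, 61.0, 69.2 and 112 CPM in KO TRAP 1 to 5 and 68.9, 67.9, 37.6, 137 and 58.5 CPM in WT TRAP 1 to 5, against 94.3, 100.6, 150.4, 149 and 206 CPM in KO input 1 to 5 and 159, 114 and 268 CPM in WT input 1, 2/3 and 5. In 8 of 10 TRAP libraries Cacna2d2 was below every input library, and KO TRAP 5 and WT TRAP 4 were the exceptions. Its log2 fold change was -1.03 ± 0.22, with an adjusted p of 0.00649 (edgeR). Within the first run alone it was -0.94 (adjusted p 0.122).

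Cacna2d3, a subunit known from pain and hearing, had 2.06, 12.9 and 36.1 CPM (lowest, median and highest) in TRAP libraries, against 12.1, 34.8 and 49.8 CPM in input libraries. Its log2 fold change of -1.29 ± 0.44 missed the threshold (adjusted p 0.0931, edgeR), and within the second run alone it was 0.16. Cacna2d1 gave 0.29 ± 0.32 and Cacna2d4, a retinal subunit, reached at most 11.9 CPM in TRAP libraries, against 5.40 CPM in input libraries. Cacna2d1 made up 38.2% ± 10.7 of the summed per-length level of the 4 genes in TRAP libraries, against 19.1% ± 8.2 in input libraries, and Cacna2d2 46.2% ± 11.7, against 59.2% ± 7.8.

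The 4 calcium channel beta subunits, cytoplasmic partners that carry the pore to the membrane, all had positive log2 fold changes, and none passed the threshold. Cacnb3 had 124, 172 and 359 CPM (lowest, median and highest) in TRAP libraries, against 84.7, 123 and 254 CPM in input libraries. Its log2 fold change was 0.60 ± 0.27 with an adjusted p of 0.213 (edgeR), and it was -0.22 within the second run alone. Cacnb1, the subunit also used in skeletal muscle, gave 0.50 ± 0.31, Cacnb2 gave 0.38 ± 0.23 and Cacnb4 gave 0.14 ± 0.31. Within the first and second run Cacnb1 was 1.00 and -0.24, and Cacnb4 was -0.27 and 0.82. The summed level of the 4 was 552 to 837 CPM in TRAP libraries, against 351 to 624 CPM in input libraries. Per length Cacnb3 was highest, at 72.8 ± 31.7 CPM per kb in TRAP libraries, against 45.9 ± 17.6 in input libraries.

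Among the gamma genes, most of which encode AMPA receptor partners (TARPs), Cacng2 fell in TRAP. Cacng2, on chromosome 15 (mm10, 77993623 to 78119280, minus strand), encodes stargazin, the TARP that brings AMPA receptors to synapses in cerebellar granule cells. It had 8.04, 0.817, 28.2, 49.9 and 63.8 CPM in KO TRAP 1 to 5 and 10.2, 10.9, 4.43, 34.2 and 33.3 CPM in WT TRAP 1 to 5, against 71.8, 97.3, 78.7, 46.0 and 94.1 CPM in KO input 1 to 5 and 52.4, 64.3 and 77.8 CPM in WT input 1, 2/3 and 5. In 8 of 10 TRAP libraries Cacng2 was below every input library, and KO TRAP 4 and KO TRAP 5 were the exceptions. The log2 fold change was -2.02 ± 0.46, with an adjusted p of 0.00865 (edgeR). It was -2.76 within the first run and -0.75 within the second (adjusted p 0.337), and -1.58 without the run as a covariate (adjusted p 0.0528).

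Cacng5, another TARP, lay just outside the threshold. It had 2.45, 38.9 and 101.2 CPM (lowest, median and highest) in TRAP libraries, against 59.1, 94.2 and 137 CPM in input libraries, and its log2 fold change of -1.19 ± 0.36 gave an adjusted p of 0.0571 (edgeR). With the replicate number as a block it was -1.37 with an adjusted p of 0.0436. It also passed when KO TRAP 1, 2, 3 or 5 or KO input 4 was left out, with adjusted p of 0.0483, 0.0294, 0.0488, 0.0355 and 0.0465. The TARPs Cacng3 and Cacng4 gave 0.38 ± 0.27 and -0.24 ± 0.49. Per length, Cacng3 was highest in TRAP, at 54.7 ± 22.7 CPM per kb, against 42.4 ± 11.96 in input libraries, and it made up 56.5% ± 11.2 of the summed per-length level of the 5 gamma genes with counts in TRAP libraries, against 36.1% ± 5.9 in input libraries. Cacng2 made up 9.2% ± 9.3 in TRAP libraries, against 21.7% ± 4.4 in input libraries.

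The HCN channels showed no difference at the threshold. Hcn4, a slow pacemaker channel of heart and brain, gave -0.70 ± 0.37 (adjusted p 0.312, edgeR), with 5.94, 19.8 and 43.8 CPM (lowest, median and highest) in TRAP libraries, against 22.8, 26.2 and 54.1 CPM in input libraries. Hcn2 gave -0.50 ± 0.40 and Hcn3 gave -0.05 ± 0.31. Hcn3 was highest per length, at 15.6 ± 5.69 CPM per kb in TRAP libraries, against 17.4 ± 8.42 in input libraries. The levels of Hcn2 and Hcn4 in TRAP, at 6.95 ± 4.09 and 5.67 ± 3.64 CPM per kb, lay within their spread of each other.

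The 9 genes that failed the filter in this comparison were Scn4a, Scn10a, Scn11a, Cacna1f, Cacna1s, Cacng1, Cacng6, Cacng7 and Cacng8. Scn4a, the skeletal muscle pore, had 0 counts over the 10 TRAP libraries, against 5 counts over the 8 input libraries. Scn10a and Scn11a, pores of sensory neurons, had 7 and 13 counts over the TRAP libraries, against 2 and 22 over the input libraries. Cacng1, the skeletal muscle gamma subunit, had 81 counts over the TRAP libraries, of which 74 were in WT TRAP 2, against 13 over the input libraries. Markers of muscle summed to 14.8 to 40.9 CPM in TRAP libraries, against 12.1 to 26.6 CPM in input libraries, and 3 of 8 passed the filter; Myh4 was at 0 in all input libraries. Markers of peripheral sensory neurons summed to 10.9 to 107 CPM in TRAP libraries, against 17.7 to 119 CPM in input libraries, with 3 of 5 past the filter and Mrgprd at 0 throughout. The part of these cells in the counts was not tested. Cacng6, Cacng7 and Cacng8 had 0 counts in every library, where up to 3 counts are compatible with 0.

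Of 34 listed partners of these channels, which anchor, modulate or traffic them or form the sodium leak channel complex, 32 were tested in TRAP against input. Their median log2 fold change was -0.06. At the threshold 1 was higher and 1 lower, against 2.41% and 2.31% of all genes tested. At an unadjusted p below 0.05 the count was 15 of 32 (edgeR), against 19% of all genes. Rimbp2, which ties calcium channels to release sites, had a log2 fold change of 2.13 ± 0.34 with an adjusted p of 0.000205 (edgeR). Camk2a, a calcium-dependent kinase of excitatory neurons that is also on the glutamate neuron marker list, had -1.03 ± 0.20 with an adjusted p of 0.00171. Of the 32 values, 16 were positive and 16 negative.

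The TRAP and input ranges were fully apart for 0 of the 34 members and for 0.75% of all genes tested. With a share that small, 0 of 34 is no contrast with the other genes. Of the libraries, 4 had been sequenced again, and the repeat runs of the 6 genes that differed moved by a median of 0.12 and at most 0.30 on the log2 scale over 24 pairs.

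The comparison of KO with WT mice asks whether the loss of Celf6 changed the channel genes in serotonin-cell RNA or in the tissue. No channel gene differed at an adjusted p below 0.05 in either (edgeR). In TRAP 33 members were tested and 0% of all 12204 genes differed, and in input 32 members were tested and 0% of all 13036 genes differed. The knocked-out gene Celf6 was thus not called in either. As given above, KO TRAP 1 and WT input 2/3 had Celf6 levels within the range of the other genotype. The lack of a call therefore does not show that the channel genes were unchanged. At an unadjusted p below 0.05 there was 1 of 33 members in TRAP, against 3.73% of all genes, and 0 of 32 in input, against 2.88%. DESeq2 found 0 members in both, with 11 genes in all in TRAP and 6 in input. The median log2 fold change of KO over WT was 0.05 for members and 0.02 for all genes in TRAP, and -0.07 for members and 0.02 for all genes in input.

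The member with the smallest p in TRAP was Hcn4. Like Celf6, Hcn4 lies on chromosome 9 (mm10, 58823512 to 58860955, plus strand). Its linkage to the knockout allele was not tested. It had 43.8, 38.8, 28.9, 32.4 and 8.55 CPM in the libraries labelled KO TRAP 1 to 5, against 21.6, 7.10, 18.1, 10.3 and 5.94 CPM in WT TRAP 1 to 5. In TRAP 4 of 5 KO libraries were above every WT TRAP library, and KO TRAP 5 was within the WT range. The log2 fold change was 1.27 ± 0.53, with a p of 0.0268 and an adjusted p of 0.9992 (edgeR). In input Hcn4 had 24.1, 25.1, 28.8, 22.8 and 54.1 CPM in KO input 1 to 5, against 27.4, 39.5 and 25.0 CPM in WT input 1, 2/3 and 5, with a log2 fold change of -0.04 ± 0.49. The difference between the 2 genotype effects was 1.18 ± 0.74 with an unadjusted p of 0.121 in edgeR's fit across all genes.

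Next in TRAP were Cacna1e and Cacna1h, in opposite directions. Cacna1e had 109, 146, 158, 198 and 242 CPM in the libraries labelled KO TRAP 1 to 5, against 106, 119, 132, 138 and 85.6 CPM in WT TRAP 1 to 5, and a log2 fold change of 0.50 ± 0.28. Cacna1h had 2.81, 13.9, 11.7, 17.3 and 1.60 CPM in the libraries labelled KO TRAP 1 to 5, against 16.6, 21.9, 14.7, 34.95 and 14.0 CPM in WT TRAP 1 to 5, and a log2 fold change of -1.10 ± 0.68. Both sets of ranges overlapped, and both adjusted p were 0.9992 (edgeR).

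In input the 3 smallest p belonged to Cacnb2, Cacnb3 and Hcn3, with log2 fold changes of -0.59 ± 0.36, -0.46 ± 0.29 and 0.64 ± 0.46 and unadjusted p of 0.119, 0.137 and 0.187 in edgeR's fit. Cacnb2 had 72.2, 107, 54.4, 103 and 46.5 CPM in KO input 1 to 5, against 78.6, 120.5 and 149 CPM in WT input 1, 2/3 and 5, so that the ranges overlapped. Without WT input 5 Cacnb2 was -0.36 and Cacnb3 -0.20, and without KO input 3 Hcn3 was 0.37. The 6 genes that differed between TRAP and input had KO over WT log2 fold changes in TRAP between -0.34 (Cacna1i) and 0.62 (Cacng2), and in input between -0.38 (Cacna2d2) and 0.26 (Cacng2). For none of the 34 members did the genotype effect differ between TRAP and input at the threshold (0% of 14261 genes; 554 genes, 3.88%, and 0 members at an unadjusted p below 0.05 in edgeR, and 4 genes with no member in DESeq2).

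**Figure D4:**
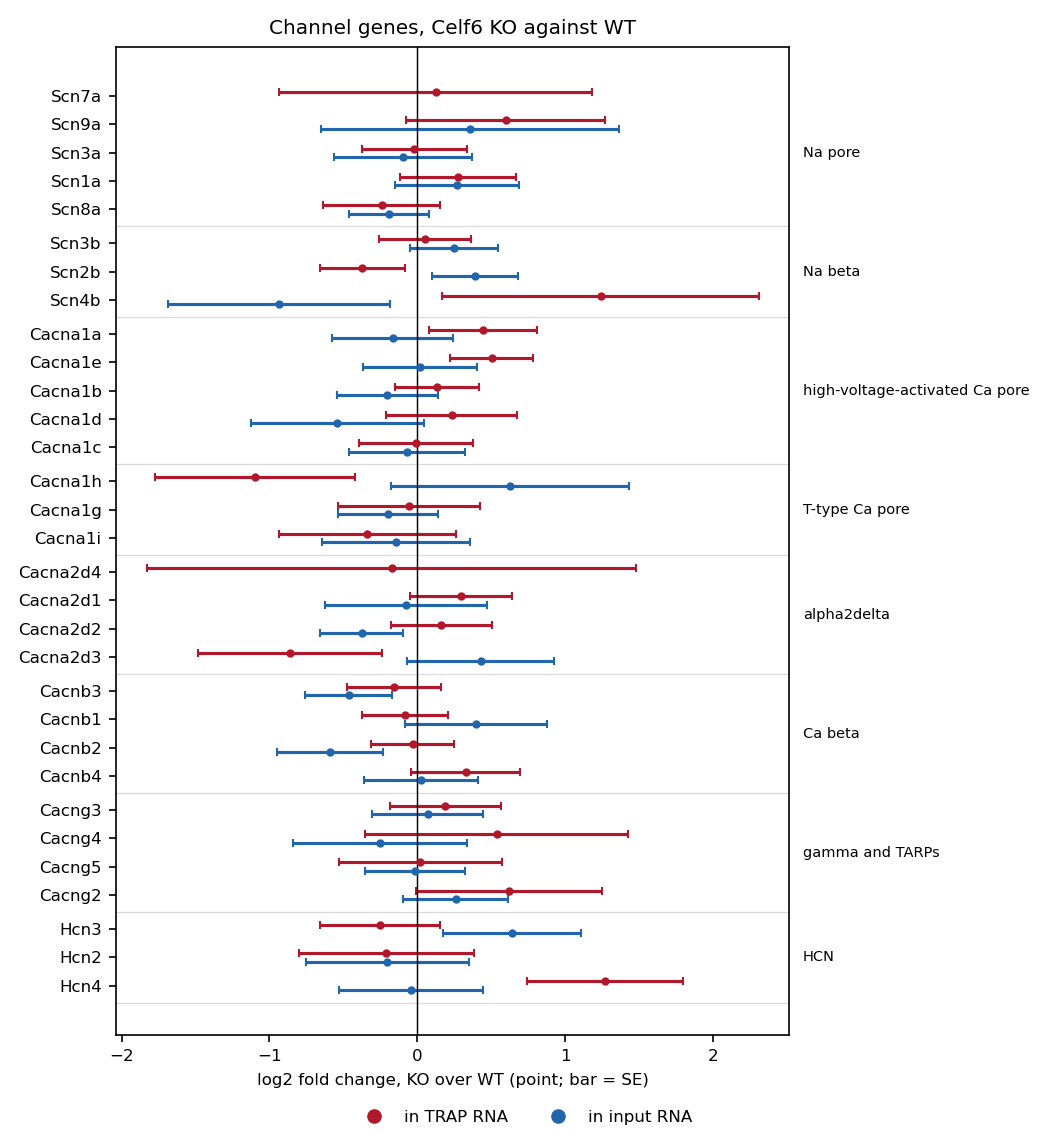
Log2 fold change of KO over WT (horizontal axis, points, with SE bars) in TRAP RNA (red, upper) and input RNA (blue, lower) for 31 channel genes, grouped by role, where tested. None of the genes shown passed an adjusted p of 0.05; Hcn4 in TRAP, at 1.27, had the smallest unadjusted p.

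In the deposited splicing tables PSI is, per the file headers, the share of isoform B, for a cassette exon the form with the exon. The tables held 29 splicing events in 13 channel genes and 1 tandem UTR event, listed under Cacnb4. Few had values in enough libraries: 8 of the 29 had a value in 4 or more. Most values present were near an end of the scale, and 104 of 105 lay below 0.15 or above 0.85. The authors had left out values with a credible interval wider than 0.20. Whether that choice shaped this spread of values was not tested. No tested channel gene event differed between KO and WT or between TRAP and input (adjusted p below 0.05, limma on log2 odds). Between genotypes, only events of Cacnb1 and Cacnb3 in TRAP and a Cacnb1 5′ splice site event in input had enough values to be tested. Between TRAP and input only events of Cacnb1 and Cacnb4 did. The other events had too few values and were not tested, so nothing follows about them. Over all events tested the share that differed was 0.0537% of splicing events in TRAP, 0% in input and 0.0762% between TRAP and input, and for tandem UTR events 0.588% in TRAP, 0% in input and 0.803% between TRAP and input.

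Cacnb3 had the smallest p of the member events tested between genotypes. The event is a cassette exon of 20 bases (mm10, chromosome 15, 98640959 to 98640978) between exons of 65 and 81 bases, all 3 annotated exons of the count table. Its PSI was 0.955, 0.957 and 0.949 in the libraries labelled KO TRAP 1, 2 and 3, against 0.926, 0.948 and 0.943 in WT TRAP 2, 3 and 4. The log2 odds difference was 0.42 ± 0.22, with an adjusted p of 0.897 (limma). The authors' deposited table gives a p of 0.085 and a false discovery rate of 0.915 for it.

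Cacnb1 had the event with a value in the most libraries, 18, an alternative 5′ splice site on chromosome 11. Its PSI was 0.005 to 0.020 in TRAP libraries, against 0.011 to 0.077 in input libraries. The log2 odds difference of TRAP over input was -0.75 ± 0.37, with a p of 0.0588 and an adjusted p of 0.567 (limma). A 155-base exon of Cacnb1 (mm10, chromosome 11, 98011343 to 98011497) had a PSI of 0.005 to 0.107 in TRAP libraries, against 0.013 to 0.032 in input libraries. For Cacnb1 the headers' reading of the mutually exclusive event and of the cassette events of the same exons disagreed, so no form is named as the commoner one there. The tandem UTR event of Cacnb4 gave a log2 odds difference of -0.18 ± 0.37 between TRAP and input (adjusted p 0.907, limma). Of the 13 channel genes with an event, the authors' deposited tables mark 2, Cacnb3 and Cacna2d2, as targets of CELF6 CLIP. That is 15.4%, against 24.7% of 4133 genes with an event. The marked feature is the 3′ UTR for Cacnb3 and an intron for Cacna2d2.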

How the data were processed

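Per the labels' protocols, cDNA came from the Nugen Ovation 2 kit and libraries from the NEBNext Ultra kit. Reads were processed with Trimmomatic and STAR, per the submitters' processing notes. Read counts per gene are the authors' featureCounts 1.4.6-p5 output on mm10 exons without strand, per the file headers. Per the series' design text, PSI values are fractions that the authors estimated with MISO, leaving out values whose credible interval exceeded 0.20 in width. The p-values and FDR in the deposited tables come from the authors' analysis of variance on log2 odds.

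From these, counts were tested here with edgeR 4.0.16 (R 4.3.3; low-count filter filterByExpr, trimmed mean of M values, quasi-likelihood F test, sequencing run as a covariate, Benjamini-Hochberg over all genes tested, threshold 0.05). DESeq2 1.42.0 was an alternative. PSI was tested with limma 3.58.1 on log2 odds, bounded at 0.01 and 0.99, for events with a value in 3 or more libraries of each group. The edgeR and limma tests were run on simulated data with known changes. The simulated log2 odds had no missing values and were not held near the ends of the scale. They therefore say nothing about power for the PSI events here. TRAP was compared with input over both genotypes, and KO with WT within each. CPM per kilobase divides by the summed exon length of each gene. SE is the log2 fold change divided by the square root of F.

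The 18 samples exclude the repeat runs and WT input 4, which the labels call an outlier. Total counts limit the precision: 3390423 to 6861963 per library. The limit of up to 3 counts for a gene at 0 covers counting error only, whereas SE and SD include the spread between libraries. Members and gene lists were chosen with earlier results of these data known. Genes with full values are those past the threshold in TRAP against input, the 3 with the smallest p in each direction there and the 3 smallest in each genotype comparison.

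The series gives 5 brains per genotype with both RNA kinds, so same-numbered TRAP and input libraries may share a brain. Sex-linked counts differed within some numbers. WT TRAP 5 held 2 counts of Xist and 300 of Y-linked genes, against 123 and 33 in WT input 5. KO TRAP 1 held 381 and 154, against 614 and 3 in KO input 1. In the other same-numbered libraries of a genotype, the same one of Xist and Y-linked counts prevailed in both. Same-numbered deviations from group means correlated at -0.19 to 0.04 (KO) and -0.16 to -0.04 (WT), and 0 libraries were closest to their own number. Alternatives were another scaling, no filter, DESeq2, no run term, each run or genotype alone, the replicate number as a block, and each library left out. Some members that entered the tests and counts are not reported by name here.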

Additional observations from a re-analysis of the deposited data

Results flagged for a closer look

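Among the members named with full values, groups of 5 libraries were checked for a library far from the other 4, which chance gives in about 1 in 20 groups. Of 51 groups, 3 held such a library. Cacna1i in WT TRAP 4 stood at 36.4 CPM, against 7.62 to 15.9 CPM in the other WT TRAP libraries; without it the log2 fold change of TRAP over input was -1.88. Cacna1h in KO input 2 stood at 41.6 CPM, against 8.26 to 17.6 CPM in the other KO input libraries. Hcn4 in KO input 5 stood at 54.1 CPM, against 22.8 to 28.8 CPM in the other KO input libraries.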

How the results depend on the processing

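Of the 6 channel genes that differed between TRAP and input, all 6 kept their direction under each alternative run. Channel genes lower in TRAP numbered 3 without the run as a covariate (Cacng2 and Scn8a did not pass), 2 in run 1 libraries alone and 1 in run 2 libraries alone, 0 in KO libraries alone and 1 in WT libraries alone. Those higher numbered 0 in run 1, KO or WT libraries alone and with the replicate block. These subsets hold fewer libraries. With no filter 7 genes passed, with DESeq2 8 and with WT input 2 and 3 apart 7. Leaving out 1 library gave 5 to 7, and leaving out KO TRAP 1 and WT input 5 together, an alternative chosen after seeing the data, gave 5. Cacna2d3 reversed to 0.16 and Cacnb3 to -0.22 on the log2 scale in run 2 libraries alone, where Cacnb1 was -0.24, Cacng3 -0.02 and Cacna1h 1.27; Cacna1d (-0.39) and Cacnb4 (-0.27) changed sign in run 1 libraries alone. In WT libraries alone Cacna1d was -0.27, Cacnb4 -0.06, Cacna1h 0.63, Scn2b 0.21 and Hcn3 0.38. For each, the cause was not tested. Over all genes, 673 differed, against 1326 with DESeq2, 1065 with no filter, 408 with the replicate block (368 shared), 363 without WT input 1, 346 without WT input 5 and 337 without KO TRAP 1 and WT input 5.

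For KO against WT no member passed under any alternative run, with either direction or RNA kind. Over all genes 16 passed in TRAP and 4 in input with no filter, 11 and 6 with DESeq2, and 264 and 89 in run 2 libraries alone; 1 passed in input without KO input 3. The replicate block gave 0 in both. For the difference of the genotype effects, 3 passed with no filter and 4 with DESeq2.

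No tested member event passed under any PSI alternative. With 1 library left out, in log2 odds, the Cacnb1 mutually exclusive exon event in TRAP ranged from -0.81 to 0.23 and the Cacnb1 5′ splice site event in input from -0.41 to 0.75, with -0.13 without WT input 2/3. The Cacnb1 cassette exon event between TRAP and input ranged from -0.000369 to 0.55, and was -0.12 with the replicate block. Without a WT input library 2 values per group were enough. PSI with WT input 2 and 3 apart was added after seeing the data.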

Other observations

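The 3 gamma genes with 0 counts lie next to each other on chromosome 7 (mm10): Cacng7 at 3336585 to 3366948, Cacng8 at 3394117 to 3415605 and Cacng6 at 3424662 to 3434940. Each had 0 counts over all 24 count files. Cacng7 and Cacng8 encode TARPs known from the brain. Downstream of them Tarm1 had 199 counts and Oscar 241, and Ndufa3, a subunit of respiratory complex I at 3617373 to 3620161, had 18531. Whether the 0 counts of these genes reflect their expression was not tested.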
